A study of Homo sapiens with 9 samples.

Results

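The 200 best-expressed ZNF genes of MOLM-13 cells were examined in 9 libraries. They were taken from the 559 entries, of 56541 genes in the table, whose symbol is ZNF followed by a number and at most 1 letter. They were chosen on measured values: the entries were ranked by mean CPM (counts scaled to a common library size) in the 3 shCONTROL libraries, and the first 200 were kept. The mean of the last members kept was 15.3 CPM for ZNF417, 15.2 for ZNF23 and 15.0 for ZNF234. The first entries left out were ZNF436 at 14.7 CPM, ZNF767P at 14.6 and ZNF408 at 14.5.

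MOLM-13 is an established human acute myeloid leukaemia line. The shCONTROL group carried a control hairpin and the shBCLAF1 group a hairpin that depletes BCLAF1, which binds RNA in the nucleus. Each had 3 RNA-seq libraries. The RIP group held 3 libraries of RNA precipitated with BCLAF1 from shCONTROL cells. All 9 samples came from cells treated with doxycycline at 200 ng/µL for 4 days, so the controls carried the agent too. More cells went into each RIP than into each RNA-seq library, per the labels, and all 9 libraries carry 1 batch label. The labels name no mock precipitation, 1 hairpin against BCLAF1 stands for the knock-down, and they do not say whether replicates were separate cultures, so p-values measure the spread between these libraries.

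Most ZNF genes encode C2H2 zinc finger proteins, in which short zinc-binding units in a row read out DNA sequence. Many carry a KRAB domain, which recruits the co-repressor TRIM28 (KAP1), the histone methyltransferase SETDB1 and HP1 proteins and thereby places repressive heterochromatin, often on transposable elements. The KRAB genes arose by repeated duplication and lie in clusters, most of them on chromosome 19. Other ZNF proteins have no KRAB domain and act as transcription cofactors, RNA-binding proteins or ubiquitin and SUMO ligases.

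Library totals ran from 25819144 to 36635268 estimated counts. BCLAF1 itself had 325, 328 and 312 CPM with the control hairpin and 115, 125 and 99.9 after its knock-down (35.2% of the control). Here and below, CPM per library are scaled by the TMM method, which corrects for composition. Of the markers checked, the myeloid genes CD33, SPI1, FLT3 and CEBPA were above 88 CPM in every library, while CD3E, CD2, MS4A1, PAX5 and the erythroid genes HBB and KLF1 were at 0 in all 9. PECAM1, listed with the stromal markers, stood at 182 to 662 CPM. The 7 myeloid markers summed to 1842 to 1972 CPM in shCONTROL and 3718 to 4069 in shBCLAF1, and the 4 T cell markers to at most 39.1 and 25.7. The part of these shifts in the knock-down results below was not tested. Fewer cells of a type and less RNA per cell cannot be told apart in such bulk libraries.

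By position, 73 of the 200 members (36.5%) lie on chromosome 19, against 46.7% of all RefSeq genes with such a symbol and 7.24% of RefSeq protein-coding genes. Chromosome 7 holds 20 members, chromosome 16 holds 13 and chromosome 1 holds 12. By RefSeq, 197 are protein-coding and 3 are pseudogenes (ZNF731P, ZNF252P and ZNF271P). The span of 104 members overlaps another annotated gene, and the counting setting for strand is not given in the sources used here, so part of the counts of these members may belong to the overlapping gene. Members with near-identical copies, such as ZNF587, ZNF587B and ZNF417, or ZNF33A and ZNF33B, share sequence, and their counts are uncertain in the same way.

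The promoters of the members were examined as a feature that the rule did not use. RefSeq promoter windows (GRCh38.p14, 250 bases before to 50 bases after the start) were found for 170 members, with 216 windows. The core CCGGAAG bound by ETS transcription factors, read on both strands, was present in 81 of the 216 windows (37.5%). The share was 10.3% over all 35116 windows of the table, 12.8% over windows of all protein-coding genes and 19.5% over windows of other genes in the same range of shCONTROL level. It was 32.5% over windows of the ZNF genes below rank 200, and 46.7% over those of the chromosome 19 members against 32.6% on other chromosomes. The ETS core was singled out after 8 motifs had been searched on both strands, none of which contains another. The other shares are given for the members' windows, for all windows and for windows of other genes in the same range of level. They were 7.87%, 2.77% and 3.58% for the core ACTACAA of ZNF143, itself a member. For the CCAAT box, searched as CCAAT, they were 40.3%, 34.6% and 35.2%, with 47.0% for the ZNF genes below rank 200. The GC box GGGCGG had 63.4%, 45.0% and 68.0%, and the E-box CACGTG 8.80%, 7.26% and 10.2%, both lower in the members than in genes of like level. The TATA box TATAAA had 5.09%, 11.5% and 5.85%, the YY1 motif GATGGCGGC 2.78%, 1.40% and 3.26%, and the palindromic NRF1 motif 2.78%, 1.24% and 2.27%. The members' windows had a median GC content of 62.7%, beside 58.7% for all windows and 65.0% for the genes in the same range of level.

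The 250 bases before the start are shown for 5 of the members named below, which are not a sample of them. ZNF274 and ZNF268 rose after knock-down, ZNF664 had the lowest log2 fold change among members that passed, and ZNF865 and ZNF579 are neighbours that went opposite ways in the RIP. ZNF440 and ZNF26, which also rose and are not shown, hold no ETS core in this stretch. Capitals mark the ETS core or its reverse complement, each sequence is 5′ to 3′ on the gene's strand, and ZNF664 holds no such core in this stretch.
ZNF274, chr19:58182811-58183060, + strand: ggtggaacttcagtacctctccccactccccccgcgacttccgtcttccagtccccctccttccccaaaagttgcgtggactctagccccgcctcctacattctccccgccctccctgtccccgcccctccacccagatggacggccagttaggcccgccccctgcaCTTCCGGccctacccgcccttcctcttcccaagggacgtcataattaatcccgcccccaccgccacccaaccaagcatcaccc
ZNF268, chr12:133181245-133181494, + strand: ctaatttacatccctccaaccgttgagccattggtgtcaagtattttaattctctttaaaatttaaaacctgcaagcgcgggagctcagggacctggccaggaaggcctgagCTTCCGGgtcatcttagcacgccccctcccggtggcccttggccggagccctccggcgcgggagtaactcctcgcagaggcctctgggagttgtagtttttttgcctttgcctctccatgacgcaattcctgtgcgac
ZNF664, chr12:123972965-123973214, + strand: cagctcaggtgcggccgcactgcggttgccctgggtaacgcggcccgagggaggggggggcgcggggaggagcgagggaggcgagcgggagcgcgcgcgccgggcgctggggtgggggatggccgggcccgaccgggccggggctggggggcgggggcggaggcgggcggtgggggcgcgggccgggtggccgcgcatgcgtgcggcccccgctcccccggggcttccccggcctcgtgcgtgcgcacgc
ZNF865, chr19:55605397-55605646, + strand: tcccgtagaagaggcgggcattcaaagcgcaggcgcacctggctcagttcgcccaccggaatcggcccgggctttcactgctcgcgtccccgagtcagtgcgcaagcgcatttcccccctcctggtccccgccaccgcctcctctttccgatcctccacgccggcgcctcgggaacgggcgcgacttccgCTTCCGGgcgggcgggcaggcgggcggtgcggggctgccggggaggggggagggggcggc
ZNF579, chr19:55580849-55581098, - strand: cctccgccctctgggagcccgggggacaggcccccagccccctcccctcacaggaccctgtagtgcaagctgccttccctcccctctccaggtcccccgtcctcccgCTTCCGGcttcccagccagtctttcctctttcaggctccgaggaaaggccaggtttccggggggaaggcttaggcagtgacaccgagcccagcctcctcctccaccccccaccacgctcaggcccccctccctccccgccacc
The core begins 83 bases before the start in ZNF274, 138 in ZNF268, 60 in ZNF865 and 143 in ZNF579. Among members with a window, the core was in a window of 23 of 46 that were higher after knock-down (50.0%), 7 of 22 that were lower (31.8%) and 47 of 102 that were neither (46.1%). A match describes these letters only and shows no binding.

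In shCONTROL the members' mean level, in the CPM without TMM scaling that ranked them, ran from 15.0 to 392. The median was 35.3, and 17 members were above 100 CPM. CPM is not corrected for transcript length, so the order favours long transcripts. Because these levels chose the members, they are given as a description. Each of the 200 had at least 251 counts in every shCONTROL library, and all passed the filter on low counts in both comparisons. Summed over the members, the share of a library's counts was 1.03% ± 0.0201 with the control hairpin, 1.10% ± 0.0113 after knock-down and 1.12% ± 0.0733 for the precipitated RNA (SD, n = 3 each).

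ZNF207 (BuGZ), a spindle and kinetochore protein, had the highest level, with 393, 392 and 371 CPM. ZNF516 followed with 268, 269 and 282 CPM and ZNF106, an RNA-binding protein, with 241, 232 and 229. The next in order were ZNF451, a SUMO ligase, with 209 to 226 CPM, ZNF121 with 194 to 198 and ZNF638, an RNA-binding protein of the nucleus, with 192 to 194. ZNF217, a cofactor of the CoREST repressor and a known oncogene, had 179 to 187 CPM, ZNF292 176 to 191, ZNF146 180 to 187 and ZNF521, a cofactor of early haematopoietic cells, 157 to 161. The ranges from ZNF207 to ZNF106 did not overlap, while those of ZNF121 and ZNF638 met, and ZNF217, ZNF292 and ZNF146 overlapped one another. Replicates were close for most members: the median coefficient of variation was 3.97% in shCONTROL, with 5.54% after knock-down and 15.0% for precipitated RNA.

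Some members varied far more. ZNF84 measured 28.3, 40.1 and 6.98 CPM in shCONTROL and 32.9, 34.2 and 6.76 in shBCLAF1. ZNF33B measured 14.4, 26.0 and 27.0 in shCONTROL but 21.4, 3.28 and 0.954 in shBCLAF1, and its log2 fold change of -1.38, the lowest of all members, did not pass (adjusted p 0.363, edgeR). Of the 1800 values of the members 2 were 0, both in the RIP: ZNF281 in replicate 2, beside 56.4 and 56.3 CPM, and ZNF264 in replicate 3, beside 8.02 and 11.5. Neither gene passed in the RIP comparison.

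The first comparison set the shBCLAF1 libraries against shCONTROL. After knock-down 55 of the 200 members rose, 27 fell and 118 did not pass. The threshold was 0.05 on p-values of edgeR's quasi-likelihood test, adjusted by Benjamini-Hochberg over all 16961 genes tested. The members thus rose in 27.5% of cases, where 15.5% of all genes tested rose, and fell in 13.5%, where 16.9% of all genes fell. Among the 8392 tested genes within the members' range of shCONTROL level, 20.9% rose and 24.0% fell. The lean towards rises was not particular to the members. Of the 157 tested ZNF genes below rank 200, 24.8% rose and 1.91% fell, with a median log2 fold change of 0.28. In other zinc finger families, 4 of 14 ZSCAN genes rose and 0 fell, and 2 of 6 ZKSCAN genes rose and 0 fell. Of 10 ZFP genes 0 rose and 2 fell, and of 36 ZBTB genes 6 rose and 7 fell. The changes were small: the median size among the 82 members that passed was 0.37 on the log2 scale, and at a minimum size of 1 there were 3 lower and 0 higher. At that minimum 2.24% of all genes tested were lower and 1.77% higher. The median log2 fold change was 0.09 over the members and 0.02 over all genes tested. Ranking by the shCONTROL level favours members whose control value was high by chance, which tilts the comparison towards falls. With the 200 members taken by their level in shBCLAF1 instead, 187 of them the same, which tilts the other way, 66 rose and 23 fell.

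**Figure D1:**
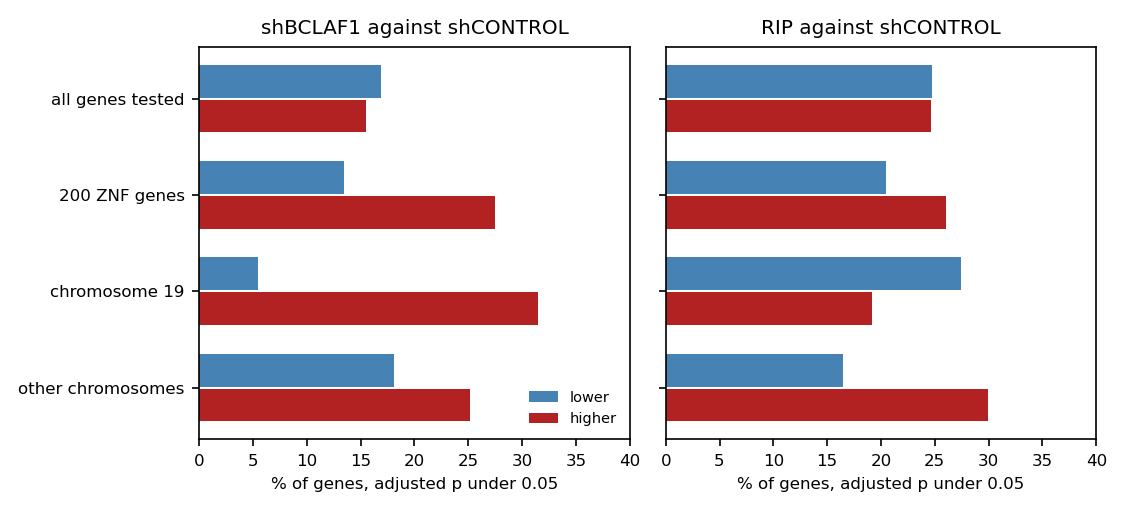
Percent of genes that were lower (blue) or higher (red) at an adjusted p under 0.05, after knock-down (left) and in the RIP (right, with no minimum fold change), for all genes tested, the 200 ZNF genes, and the members on chromosome 19 and elsewhere. After knock-down 27.5% of the ZNF genes were higher against 15.5% of all genes, while in the RIP 26.0% were higher against 24.6%.

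In a single fit of all 9 libraries, in which the RIP's wider spread enters, 20 members rose and 12 fell, while 6.48% of all genes rose and 7.57% fell. Among the 96 members whose span overlaps no other gene, 29 rose (30.2%) and 9 fell (9.38%) in the main fit, where 15.5% and 16.9% of all genes did.

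Of the 73 members on chromosome 19, 23 rose (31.5%) and 4 fell (5.48%), with a median log2 fold change of 0.15. Of the members on other chromosomes, 32 rose (25.2%) and 23 fell (18.1%), with a median of 0.04. Over all genes tested 15.5% rose and 16.9% fell, and over those in the members' range of level 20.9% and 24.0%. The count of chromosome 19 members that rose was 15 without shCONTROL replicate 3 and 7 in the fit of all 9 libraries. In these 2 fits 11.6% and 6.48% of all genes rose. The count that fell was 2 without shBCLAF1 replicate 2 or 3, without shCONTROL replicate 1 or 2, and in the fit of all 9 libraries. Of all genes, 7.57% to 15.8% fell in those fits. The difference between the chromosomes was not tested.

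By level, the members at ranks 1 to 50 rose in 11 cases (22.0%) and fell in 13 (26.0%), with a median of -0.01. For the last 50 members by level the counts were 15 (30.0%) and 2 (4.00%), with a median of 0.19. Of all genes in the range of level of the 200 members, 20.9% rose and 24.0% fell. That range is wider than the range of either group of 50, so these shares are not matched to their levels. Across the 200 members Spearman's rho of the log2 fold change with the shCONTROL level was -0.239 and with the gene's span -0.149. The level and the fold change share the shCONTROL libraries, and genes are not independent replicates.

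**Figure D2:**
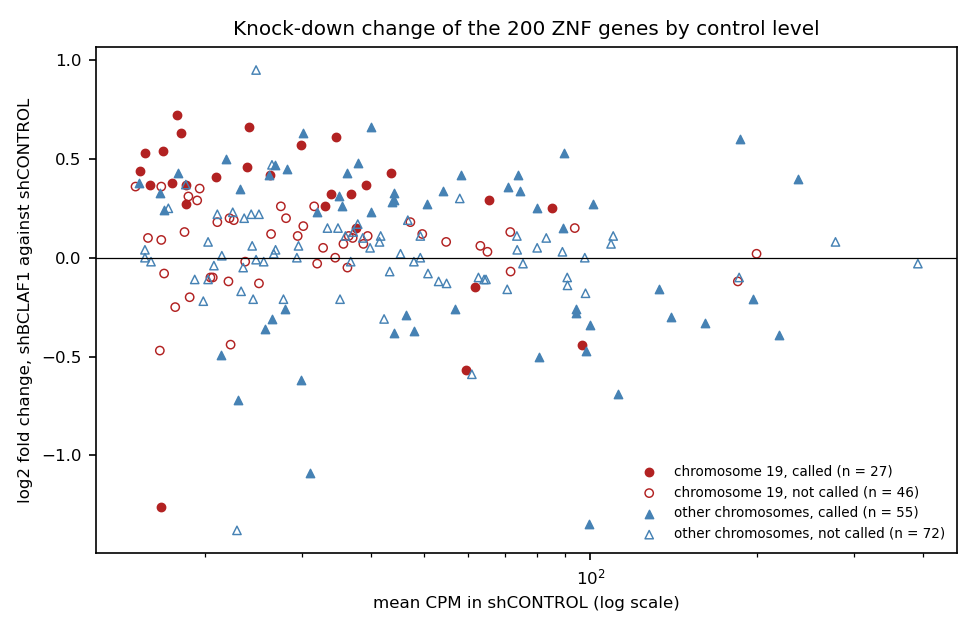
Log2 fold change after knock-down (y) against mean CPM in shCONTROL without TMM scaling (x, log scale) for each of the 200 members. Circles stand for chromosome 19, triangles for other chromosomes and filled marks for an adjusted p under 0.05. Filled circles lie mostly above 0 (23 of 27). Falls are more common at the right, where 13 of the first 50 members by level fell (26.0%). Of all genes in the range of level of the 200 members, which is wider than that of these 50, 24.0% fell.

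The named falls lay between log2 fold changes of -1.35 and -0.47. ZNF664 measured 96.1, 102 and 94.7 CPM in shCONTROL and 38.2, 39.2 and 37.3 in shBCLAF1. The groups stood far apart, and the log2 fold change was -1.35 (SE 0.05, adjusted p 9.73e-05, edgeR). The read-through gene ZNF664-RFLNA overlaps it, so its counts may stem in part from that gene. ZNF598, the ubiquitin ligase that marks collided ribosomes, fell from 111, 105 and 113 CPM to 66.5, 66.9 and 70.0 (log2 fold change -0.69, SE 0.05, adjusted p 2.88e-04, edgeR). The shBCLAF1 libraries stood at 61.7% of the control on average, and the groups lay apart. ZNF532, known as a fusion partner of NUTM1 in NUT carcinoma, fell from 29.6, 30.5 and 31.5 CPM to 10.5, 18.5 and 13.8 (log2 fold change -1.09, SE 0.20, adjusted p 0.00815, edgeR). Its shBCLAF1 libraries differed from one another more than its controls did.

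ZNF566 measured 19.2, 19.2 and 10.9 CPM in shCONTROL but 9.01, 6.34 and 5.02 after knock-down (log2 fold change -1.26, SE 0.30, adjusted p 0.0220, edgeR). The groups came close, and the call was lost without shBCLAF1 replicate 2 or 3, without shCONTROL replicate 1 or 2, and in the fit of all 9 libraries, with adjusted p from 2.84e-04 to 0.0943 over its 11 alternatives. The log2 fold change was -0.72 for ZNF280C, -0.62 for ZNF397, a SCAN-domain protein, -0.57 for ZNF791, -0.50 for ZNF22 and -0.49 for ZNF117. ZNF385A, an RNA-binding protein that also acts with p53, fell from 100, 93.4 and 96.2 CPM to 73.8, 72.4 and 63.0 (log2 fold change -0.47, adjusted p 0.00410, edgeR), and its call was lost in the fit of all 9 libraries (0.265, with 9.63e-08 to 0.265 over its 11 alternatives). ZNF117 is spanned by ERV3-1 and its read-through, so its counts are uncertain.

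The named rises lay between log2 fold changes of 0.53 and 0.72. ZNF274, the KRAB protein that brings SETDB1 to the 3′ ends of other ZNF genes, measured 16.9, 20.2 and 15.3 CPM in shCONTROL and 28.4, 28.5 and 29.1 in shBCLAF1. It stood at 164% of the control (log2 fold change 0.72, SE 0.11, adjusted p 0.00408, edgeR), with no overlap between groups, and its call was lost in the fit of all 9 libraries (0.0592, with 3.46e-07 to 0.0592 over its 11 alternatives). ZNF268 rose from 28.5, 33.1 and 27.0 CPM to 49.6, 45.2 and 42.4 (log2 fold change 0.63, SE 0.10, adjusted p 0.00463, edgeR). ZNF217, which has no KRAB domain, rose from 185, 187 and 179 CPM to 285, 281 and 263 (log2 fold change 0.60, SE 0.04, adjusted p 3.85e-04, edgeR). It was the most abundant of these risers in every shBCLAF1 library.

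ZNF45 was steady within groups, at 29.4, 29.3 and 29.4 CPM in shCONTROL but 44.2, 44.2 and 42.2 after knock-down (log2 fold change 0.57, SE 0.05, adjusted p 4.95e-04, edgeR). ZNF551 rose from 34.5, 34.1 and 33.6 CPM to 51.1, 53.9 and 50.7 (log2 fold change 0.61). The log2 fold change was 0.66 for ZNF440, 0.66 for ZNF26, 0.63 for ZNF230, 0.54 for ZNF175 and 0.53 for ZNF134. These 5 genes also passed with no overlap between the groups. ZNF263, a KRAB protein with a SCAN domain, had the highest value of all members (0.95), but its shCONTROL libraries spread from 13.8 to 36.5 CPM and it did not pass (adjusted p 0.0740, edgeR).

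**Figure D3:**
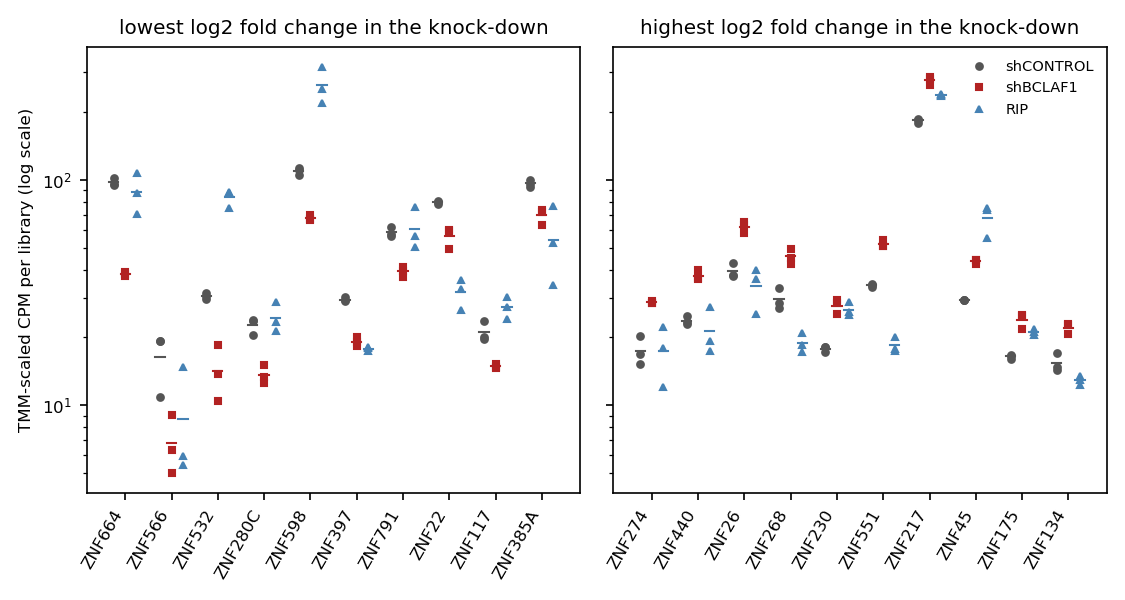
TMM-scaled CPM per library (log scale) for the 10 members with the lowest (left) and the 10 with the highest (right) knock-down log2 fold change among those that passed with groups apart. Each point is 1 library and each bar the mean of 3, with grey circles for shCONTROL, red squares for shBCLAF1 and blue triangles for RIP. ZNF664 drops to 39.1% of the control, and the shBCLAF1 values of ZNF274 stand at 164%.

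Grouped by what the proteins are known to do, in lists written with these results known, the members gave the following counts. Over all genes tested 15.5% rose and 16.9% fell. Of 12 KRAB repressors with described functions, 6 rose (ZNF274, ZNF268, ZNF45, ZNF175, ZNF746 and ZNF808) and 1 fell (ZNF445, which guards imprinted loci), with a median of 0.35. ZNF746 (PARIS), a repressor of PPARGC1A, had a log2 fold change of 0.43. Of 18 chromatin and transcription regulators without a KRAB domain, 3 rose (ZNF217, ZNF687 and ZNF335) and 5 fell, with a median of -0.03. The 5 were ZNF532, ZNF76, a relative of ZNF143, ZNF521, ZNF592 and ZNF652. ZNF521 fell from 157, 161 and 157 CPM to 127, 136 and 114 (log2 fold change -0.33, adjusted p 0.0146, edgeR). ZNF143, ZNF148 and ZNF384 had values of -0.05, 0.03 and -0.11 and did not pass.

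Of 8 members that handle RNA or ribosomes, 3 fell (ZNF598, ZNF385A and ZNF638) and 1 rose, where 16.9% and 15.5% of all genes did. ZNF638 fell from 192, 194 and 194 CPM to 164, 167 and 168 (log2 fold change -0.21, SE 0.03, adjusted p 0.00342, edgeR), a small change beyond a very narrow spread. ZNF106 rose from 241, 232 and 229 CPM to 319, 308 and 296 (log2 fold change 0.40, SE 0.04, adjusted p 0.00110, edgeR). ZNF326, a subunit of the DBIRD complex that links splicing to transcription, had 0.10, ZNF473, a factor of histone mRNA 3′ end processing, 0.10, and ZNF622, a 60S ribosome assembly factor, -0.07. None of these 3 passed.

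The partners of KRAB proteins were followed in a list of 25 heterochromatin genes. After knock-down 10 fell (16.9% of all genes fell) and 1 rose, with a median of -0.13. CBX5, which encodes HP1 alpha, fell most, from 406, 426 and 407 CPM to 137, 134 and 124, or 31.8% of the control (log2 fold change -1.65, SE 0.05, adjusted p 8.17e-05, edgeR). UHRF1, a factor of maintenance methylation, fell by 0.53 on the log2 scale, TASOR of the HUSH complex by 0.32, CHD4 by 0.22 and HDAC2 by 0.22. DAXX, a histone chaperone, rose, with a log2 fold change of 0.38. TRIM28 itself measured 471, 416 and 444 CPM in shCONTROL and 442, 420 and 465 in shBCLAF1, and the groups overlapped (log2 fold change -0.00, adjusted p 0.995, edgeR). The count of falls was 6 without shCONTROL replicate 1 and 2 in the fit of all 9 libraries. In these fits 12.5% and 7.57% of all genes fell. SETDB1 spread from 23.1 to 61.7 CPM within shCONTROL and did not pass (0.42, adjusted p 0.485, edgeR).

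The second comparison set the precipitated RNA against RNA-seq of the same kind of cells. Enriched and depleted mean that the test passed and that the log2 fold change reached 1 or -1. By this measure 14 of the 200 members were enriched, where 11% of the 16727 genes tested were, and 16 were depleted, where 13.5% were. With no minimum, 52 were higher (26.0%, beside 24.6% of all genes) and 41 lower (20.5%, beside 24.7%), and 107 did not pass. These shares lie near or under those of all genes. The median log2 fold change was -0.02 over the members and -0.05 over all genes tested, and the members' middle values ran from -0.37 to 0.45 (quartiles), where those of all genes ran from -0.81 to 0.63. Scaling by total counts shifted the median of all genes by -0.12 and gave 11 enriched and 20 depleted members, where 8.76% and 15.7% of all genes were. The count of depleted members was 8 without RIP replicate 3, where 14.0% of all genes were depleted. The reference was RNA-seq and not a mock precipitation, so binding and background of the precipitation cannot be told apart. The summed epithelial and stromal markers, nearly all PECAM1, stood at 421 to 662 CPM in the RIP and 182 to 194 in shCONTROL, and their part in these results was not tested.

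ZNF865 stood apart from the other members. It measured 35.2, 36.3 and 37.2 CPM in shCONTROL and 217, 353 and 272 in the RIP, or 776% of the control (log2 fold change 2.95, SE 0.20, adjusted p 2.75e-04, edgeR). Its lowest RIP library was above every RNA-seq library, of which the highest had 51.1 CPM. ZNF865 lies at chr19:55605647-55617269 and overlaps no other gene in RefSeq. The next highest, ZNF532, had 87.8, 88.6 and 74.7 CPM in the RIP (log2 fold change 1.45, SE 0.10, adjusted p 2.82e-04, edgeR).

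ZNF521 measured 418, 389 and 478 CPM in the RIP, 271% of the shCONTROL level (log2 fold change 1.43, SE 0.10, adjusted p 2.96e-04, edgeR). ZNF598 measured 220, 316 and 253 CPM, 239% of shCONTROL (log2 fold change 1.25, SE 0.15, adjusted p 0.00132, edgeR). ZNF317, a KRAB protein, had 160, 164 and 182 CPM beside 69.6, 71.6 and 70.2 in shCONTROL (1.25). ZNF202, a KRAB repressor of lipid genes, reached 1.21, ZNF45 1.20, ZNF777 1.18 and ZNF227 1.16. For these 7 genes no RIP library overlapped an shCONTROL library. Without RIP replicate 2, ZNF777 (0.86) and ZNF227 (0.99) did not reach the minimum fold change, nor did ZNF45 against the shBCLAF1 libraries (0.64). ZNF263 had 64.2, 65.7 and 60.3 CPM in the RIP (1.37, adjusted p 0.0158, edgeR), with the uneven controls given above. Its call was lost without shCONTROL replicate 1 (0.0607, with 1.93e-04 to 0.0607 over its 12 alternatives), and against the shBCLAF1 libraries its log2 fold change was 0.43. The RIP came from shCONTROL cells, so values against the shBCLAF1 libraries also take in the knock-down change of each gene.

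Of the enriched members, ZNF532, ZNF521 and ZNF598 were lower after knock-down. ZNF865, the most enriched (knock-down log2 fold change 0.32, adjusted p 0.0389, edgeR), ZNF45 and ZNF266 were higher in both comparisons. With no minimum fold change, ZNF638, ZNF507, ZNF251 and ZNF277 were also lower after knock-down and higher in the RIP. Higher in both were ZNF106, ZNF217, ZNF731P, ZNF687, ZNF286A, ZNF335, ZNF692, ZNF512, ZNF230, ZNF175 and ZNF23. ZNF22 was lower in both (-0.50 and -1.33), and ZNF551 was higher after knock-down (0.61) and lower in the RIP (-0.89). The 2 comparisons share the shCONTROL libraries, so their values are set side by side and not correlated. Against the shBCLAF1 libraries, which the rule did not use, 15 of the 200 members were enriched and 21 depleted, where 13.3% and 14.7% of all genes tested in that fit were, so the shares of members lay under those of all genes.

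Among the depleted members, ZNF579 measured 17.3, 15.5 and 16.4 CPM in shCONTROL and 4.84, 7.28 and 6.07 in the RIP (log2 fold change -1.43, SE 0.18, adjusted p 0.00147, edgeR). ZNF580 measured 23.5, 20.9 and 21.2 CPM and 10.3, 8.27 and 5.93 (-1.42, adjusted p 0.00275, edgeR), and ZNF581 19.2, 19.1 and 17.1 CPM and 7.08, 8.20 and 8.92 (-1.20, adjusted p 9.43e-04, edgeR). ZNF580 and ZNF581 overlap on the genome, so their counts are not independent. ZNF22 stood at 39.9% of shCONTROL, with 35.8, 26.4 and 32.8 CPM in the RIP beside 79.7, 78.0 and 80.7. The pseudogene ZNF271P was at 39.1% (-1.36). ZNF121, the fifth most abundant member, measured 89.0, 117 and 66.7 CPM in the RIP beside 198, 197 and 194 (-1.12, adjusted p 0.00577, edgeR). The log2 fold change was -1.15 for ZNF506, -1.13 for ZNF696, -1.08 for ZNF749 and -1.07 for ZNF587B. Without RIP replicate 3, ZNF506 (-0.93), ZNF121 (-0.93) and ZNF587B (-0.90) did not reach the minimum fold change. Against the shBCLAF1 libraries, where the knock-down change enters, ZNF22 (-0.83), ZNF581 (-0.98) and ZNF749 (-0.99) did not.

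**Figure D4:**
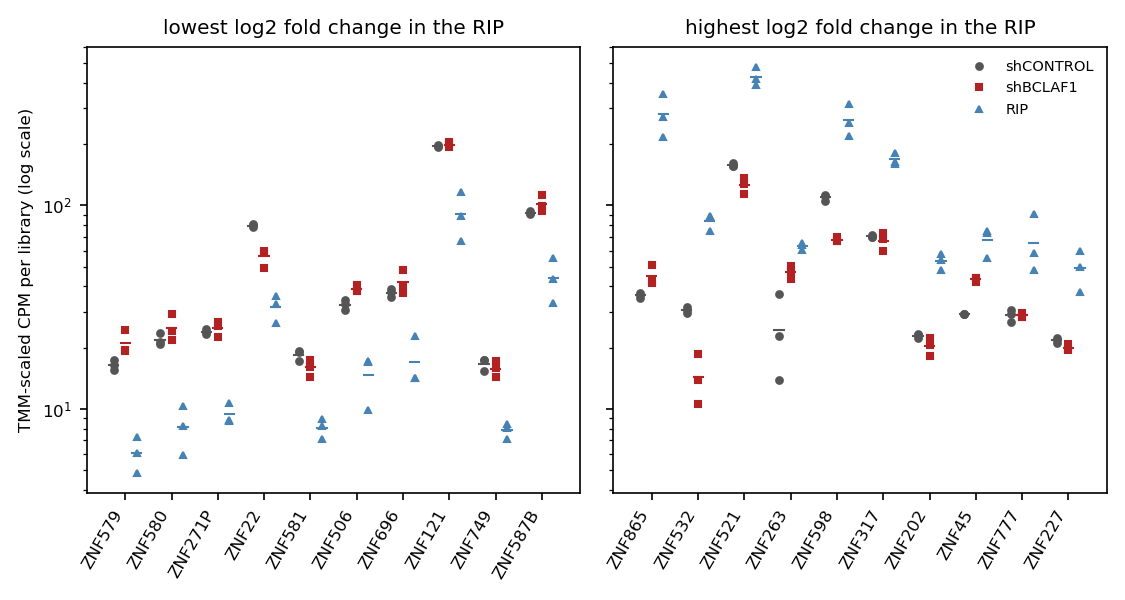
TMM-scaled CPM per library (log scale) for the 10 members with the lowest (left) and the 10 with the highest (right) log2 fold change in the RIP among enriched or depleted members with groups apart, with marks as in the plot of the knock-down members. The RIP values of ZNF865, at 217 to 353 CPM, stand far above its RNA-seq values, at 35.2 to 51.1.

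By role, 5 of the 8 RNA and ribosome members passed as higher in the RIP, with no minimum fold change, and 1 as lower. Over all genes tested these shares were 24.6% and 24.7%. ZNF598 was joined by ZNF106 (0.95), ZNF638 (0.83), ZNF622 (0.45) and ZNF473 (0.29), while ZNF346, which binds double-stranded RNA, had -0.58. Of the 18 chromatin and transcription regulators, 7 were higher (38.9%) and 0 lower. ZNF148 had 0.85 and ZNF335 0.99. Of the 12 KRAB repressors, 6 were higher and 1 lower, and 4 of them were enriched (ZNF263, ZNF317, ZNF202 and ZNF45). The lists are small and were written with results known, so their shares describe these genes alone.

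Of the 25 heterochromatin genes, 9 were higher in the RIP and 2 lower, where 24.6% of all genes were higher and 24.7% lower. TRIM28 had 151, 189 and 176 CPM, 38.7% of shCONTROL (log2 fold change -1.38, SE 0.12, adjusted p 5.04e-04, edgeR), and CBX5 stood at 55.3%. DAXX reached 238, 418 and 262 CPM beside 71.0, 67.0 and 70.0 (2.14, adjusted p 9.48e-04, edgeR), and HDAC1 419, 367 and 741 beside 142, 139 and 146 (1.83, adjusted p 0.00267, edgeR). SMARCAD1, ATF7IP, a partner of SETDB1, and the methyltransferase gene EHMT1 had 0.74, 0.66 and 1.10.

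On chromosome 19, members were joined into runs wherever neighbours lay no more than 1 Mb apart, and 8 runs held at least 5 members. This division was made after the values had been seen and is a description. The chromosome 19 members as a whole had a median log2 fold change of -0.16 in the RIP, with 14 higher (19.2%) and 20 lower (27.4%), near the 24.6% and 24.7% of all genes. The others had a median of 0.08, with 38 higher and 21 lower, and the difference was not tested. In the run from ZNF283 to ZNF296 (chr19:43827321-45076478), 6 of 9 members were higher in the RIP and 1 was lower, with a median of 0.69. The higher ones were ZNF45, ZNF230, ZNF224, ZNF234, ZNF226 and ZNF227, which lie next to one another among the members. ZNF224, a KRAB protein that binds WT1, measured 52.9, 46.1 and 52.0 CPM in the RIP beside 29.6, 32.5 and 31.1. In the same run 4 of 9 rose after knock-down and 0 fell, where 15.5% and 16.9% of all genes did.

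In the run at the end of the long arm, from ZNF264 to ZNF324 (chr19:57191500-58475436), 7 of 13 members rose after knock-down and 1, ZNF460, fell, with a median of 0.29. Over all genes tested 15.5% rose and 16.9% fell. The risers were ZNF264, ZNF805, ZNF134, ZNF551, ZNF587, ZNF417 and ZNF274. In the RIP 6 of these 13 were lower and 0 higher, with a median of -0.66. Over all genes tested in the RIP 24.7% were lower and 24.6% higher. ZNF551, for example, measured 17.8, 17.5 and 20.1 CPM in the RIP, under all RNA-seq libraries (-0.89, adjusted p 7.48e-04, edgeR). In the run from ZNF628 to ZNF444 (chr19:55476617-56160893), 4 of 7 were lower in the RIP (ZNF579, ZNF581, ZNF580 and ZNF444) while ZNF865, between ZNF579 and ZNF581, was the most enriched member. Genes of a run share ancestry and in part sequence, so they are not independent points.

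**Figure D5:**
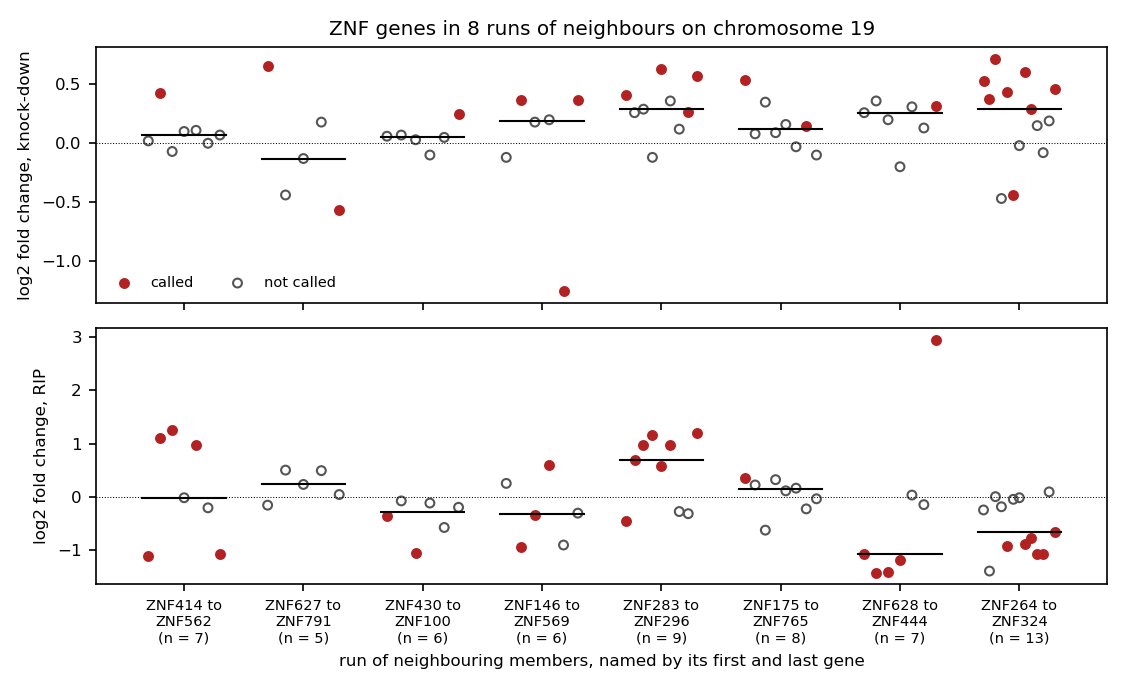
Log2 fold change of the members in the 8 chromosome 19 runs with at least 5 members, after knock-down (top) and in the RIP (bottom), with runs in order along the chromosome. Each point is 1 gene, filled at an adjusted p under 0.05, and the bar is the run's median. The run from ZNF283 to ZNF296 has a RIP median of 0.69, and the next but one, with ZNF865 at 2.95, a median of -1.07.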

How the data were processed

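RNA-seq of shCONTROL and shBCLAF1 cells and RIP RNA were compared, with 3 libraries each. The values deposited by the authors are expected counts, that is estimated counts for each gene in whole numbers, without normalization. STAR 2.7.11b, StringTie 2.2.3 and hg38 are named in the submitters' processing notes, without their roles. The annotation, strand and parameter settings are not given in the sources used here. An entry that names no gene (0% to 3.75% of counts) was left out. Counts that StringTie-like tools derive from coverage can be 0 beside replicates with many reads.

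Each contrast was fitted on its own 6 libraries and all genes with edgeR 4.0.16 in R 4.3.3: default filter on low counts, TMM, prior count of 2, quasi-likelihood F-test on group alone, Benjamini-Hochberg adjustment, threshold 0.05. Standard errors came from the fold change and its F statistic. The fits were tested on simulated data. DESeq2 1.42.0, other scalings, filters, member choices and omitted libraries were alternatives. The members, lists and role groups were chosen with earlier results of these data known. Named were BCLAF1, the 10 most abundant members, those beside rank 200, those at 0 in a library, up to 6 co-repressors per contrast, and per contrast the 10 lowest and 10 highest members that passed with groups apart. Other members and co-repressor genes, such as ZNF84, ZNF33B, those of the role groups and of the chromosome 19 runs, were named after their values were seen. RefSeq matched all 200 members by symbol, and the gene name table matched 199 by identifier. Classes by protein domain were planned but not run, since no protein sequences were used here. Precision is limited by 3 libraries per group.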

Additional observations from a re-analysis of the deposited data

How the results depend on the processing

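The counts of members rest on 3 libraries per group, with 251 or more counts of each member in every shCONTROL library. In the fit of all 9 libraries, 12 members were lower and 20 higher after knock-down, where 7.57% and 6.48% of all genes were. At a minimum log2 fold change of 1 these were 3 and 0, and over all ZNF genes tested 94 were higher. With no minimum fold change 41 members were lower and 52 higher in the RIP, and 24 of all ZNF genes tested were enriched. Among members without an overlapping gene, an alternative added after seeing the data, 9 were lower and 29 higher after knock-down, and 9 were depleted and 7 enriched. These subsets are smaller or larger by construction.

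With 1 library left out, 19 to 26 members were lower and 38 to 51 higher after knock-down, 8 to 21 were depleted and 12 to 19 enriched. In these knock-down fits 12.5% to 15.8% of all genes were lower and 11.4% to 15.3% higher. In the RIP fits 12.1% to 16.9% of all genes were depleted and 10.3% to 11.6% enriched. The members' knock-down median then lay between 0.08 and 0.10, and their RIP median between -0.10 and 0.05. The knock-down median was 0.14 with total counts, 0.12 for members ranked by shBCLAF1, 0.15 over all ZNF genes tested and 0.07 without overlapping genes. The RIP median was -0.13 with total counts. A median counts as moved here when it shifts by at least the SD between libraries of both groups combined (0.0148 in the knock-down, 0.111 in the RIP). That measure replaced the SD of the treated group alone (0.00313 and 0.110) after its outcome had been seen. The change lowered the number of moved knock-down medians from 13 to 4 of 16 alternatives and left 1 of 17 in the RIP. On chromosome 19, 2 to 3 members were lower and 15 to 22 higher with 1 library left out, and 2 and 7 in the fit of all 9 libraries. Of the co-repressor genes 6 to 9 were lower after knock-down with 1 library left out, and 2 in the fit of all 9 libraries. In that last fit 7.57% of all genes were lower and 6.48% higher. DESeq2 gave 31 lower and 61 higher members, and 16 depleted and 15 enriched. Its shares of all genes were 18.1% lower, 16.3% higher, 14.0% depleted and 11.6% enriched.

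The replicate numbers paired the libraries weakly at most: deviations of same-numbered libraries correlated by 0.0259 to 0.0837 in the knock-down and by -0.0235 to 0.0204 in the RIP. In the knock-down each library correlated best with its own number, and other pairs reached at most 0.00965, so a weak pairing there is not excluded. With the replicate number as a block, 25 members were lower and 49 higher after knock-down, and 16 were depleted and 13 enriched. Of all genes, 15.0% were then lower, 13.4% higher, 11.1% depleted and 9.47% enriched. Of the 20 named members per contrast, 17 in the knock-down and 10 in the RIP kept their call under all alternatives run, and none reversed. Of the 10 RIP calls lost in some alternative, 1 (ZNF263) missed the adjusted p without shCONTROL replicate 1, and the other losses were of the minimum fold change. Some of these losses were against the shBCLAF1 libraries, a reference that takes in the knock-down change.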
